A study of Mus musculus with 9 samples.

Results

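Messenger RNA of 10 genes that mark GABAergic interneurons was followed through 9 mouse brain libraries: Pvalb, Sst, Vip, Npy, Calb2, Lhx6, Reln, Lamp5, Cck and Gad1. They were chosen by name, as markers of interneuron classes plus the gene for the main GABA-synthesising enzyme. No rule on measured values was used, but earlier results of these data were known when the choice was made. They are 10 of 54446 genes counted, and all 10 were among the 17355 genes that passed the filter on low counts. The libraries came from brain tissue of adult male mice aged 3 to 4 months, 3 libraries each from wild type (B6N), Tfap2a+/- and Tfap2b+/-, the last 2 groups labelled as heterozygous knockouts of the transcription factors AP-2 alpha and AP-2 beta. The sources used here do not say how either allele was made, which part of the brain was taken, or whether replicates were separate animals, and the p-values below cover the spread among these samples alone, which may be technical.

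GABA is the main inhibitory transmitter of the forebrain. Local interneurons of cortex, hippocampus and striatum fall into classes named for their calcium-binding proteins and peptides. Parvalbumin and somatostatin cells arise from the medial ganglionic eminence of the embryo under the homeodomain factor Lhx6, while Vip cells and most Lamp5 and Cck cells arise from the caudal eminence. None of these genes is limited to cortical interneurons. Gad1 is also made by striatal projection neurons and other GABA neurons, Cck and Lamp5 by cortical pyramidal cells, Pvalb and Calb2 by cells of thalamus, midbrain, hindbrain and cerebellum, and Calb2 and Reln by cells of the olfactory bulb. In bulk tissue, fewer cells of a type and less RNA per cell cannot be told apart.

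The promoters are shown here because AP-2 factors bind GC-rich sites, commonly given as GCCNNNGGC, and because the Sst promoter holds the cyclic AMP response element, TGACGTCA, through which CREB acts. RefSeq promoter windows of GRCm38.p6, from 250 bases before to 50 after a start site, matched 9 of the 10 genes with 13 start sites. Calb2 was not matched. Both motifs were searched on both strands, which is 1 search each since they are their own reverse complement, and they do not overlap each other here. GCCNNNGGC stood in 4 of the 13 windows, from 3 genes, and in 16.6% of all 32851 windows of 300 bases. TGACGTCA stood in 1 of the 13 windows, that of Sst, and in 1.79% of all windows. A match is a description of the letters and not a site shown to be bound. In the windows below, capitals mark the motif. The Sst window is chr16:23890795-23891094, minus strand, with the first motif base at -48 from the start site. The Reln window is chr5:22344656-22344955, minus strand, with motifs from -170 and -40. The Pvalb window is chr15:78206351-78206650, minus strand, with a motif from -81, and a second Pvalb start site (chr15:78204188-78204487) has 1 from -164. The Lamp5 window is chr2:136052089-136052388, plus strand, with a motif from -25.
Sst: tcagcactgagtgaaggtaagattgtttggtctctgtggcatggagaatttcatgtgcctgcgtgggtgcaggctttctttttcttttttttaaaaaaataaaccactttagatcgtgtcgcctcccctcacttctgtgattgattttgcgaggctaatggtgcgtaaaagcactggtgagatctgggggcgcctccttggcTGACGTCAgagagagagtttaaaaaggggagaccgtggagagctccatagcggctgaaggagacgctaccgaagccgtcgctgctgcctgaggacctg
Reln: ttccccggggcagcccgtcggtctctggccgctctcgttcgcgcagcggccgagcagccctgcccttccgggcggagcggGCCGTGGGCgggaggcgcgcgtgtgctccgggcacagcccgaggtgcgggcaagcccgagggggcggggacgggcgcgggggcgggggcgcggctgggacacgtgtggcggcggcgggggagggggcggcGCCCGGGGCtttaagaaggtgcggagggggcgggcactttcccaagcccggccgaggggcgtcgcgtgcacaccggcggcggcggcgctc
Pvalb: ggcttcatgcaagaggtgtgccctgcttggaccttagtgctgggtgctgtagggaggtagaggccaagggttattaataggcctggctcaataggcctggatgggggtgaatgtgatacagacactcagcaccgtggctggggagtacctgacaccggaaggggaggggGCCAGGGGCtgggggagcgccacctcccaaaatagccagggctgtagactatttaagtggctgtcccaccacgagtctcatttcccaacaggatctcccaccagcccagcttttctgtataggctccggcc
Lamp5: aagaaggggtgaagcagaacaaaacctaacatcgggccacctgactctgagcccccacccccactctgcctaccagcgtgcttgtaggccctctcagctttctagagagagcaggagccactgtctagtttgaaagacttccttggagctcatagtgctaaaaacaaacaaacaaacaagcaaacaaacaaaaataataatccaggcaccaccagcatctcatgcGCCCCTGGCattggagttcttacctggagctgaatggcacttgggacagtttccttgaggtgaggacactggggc

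The levels of the targeted genes are given beside the labels, which they cannot settle, since how the alleles were made is not known. Tfap2a gave 0.610, 0.263 and 0.734 CPM (counts scaled to library size, with TMM factors) for wild type (libraries 1 to 3) and 0.445, 0.223 and 0.461 for Tfap2a+/-, so the groups overlapped near the limit of detection. Tfap2b gave 2.25, 0.715 and 14.8 CPM for wild type and 32.9, 8.90 and 5.81 for the group labelled Tfap2b+/-, which overlap and have the higher mean where the label has 1 copy inactivated. That group is therefore called the libraries labelled Tfap2b+/- throughout. Tfap2b differed 46.0-fold between the lowest and the highest library. It was highest in the library with the most midbrain and hindbrain marker RNA, given below, and the part of that content was not tested.

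Libraries also differed in markers of brain regions, and these values stand beside the results they move with. Pan-neuronal markers (6 of 6 genes, among them Snap25) were detected in every library, at 5485 to 8175 summed CPM. Library 1 labelled Tfap2b+/- had the highest midbrain and hindbrain score, 3.56 against 0.95 or less elsewhere, and the lowest cortical excitatory score, -0.94 against -0.43 or more elsewhere. A score is the mean over a list of log2 CPM minus each gene's mean over the 9 libraries. Summed over 12 midbrain and hindbrain markers, of which 2 were at 0 in all libraries, it had 152 CPM, against 7.6 to 30.7 CPM in the other libraries. Library 3 labelled Tfap2b+/- stood apart in the 6 olfactory bulb markers, at 151 CPM summed against 5.5 to 33.6 CPM. Wild-type library 2 and Tfap2a+/- library 1 held the most choroid plexus RNA, with Ttr at 2761 and 767 CPM. Striatal markers were the highest in Tfap2a+/-, with 10 of 10 of higher mean than in wild type, a median log2 fold of 2.03 and summed levels of 1192 to 3033 against 613 to 1140 CPM. Hippocampal markers had a lower mean there in 8 of 8 (median log2 fold -2.01), at 39.9 to 53.5 against 48.2 to 225 CPM summed. Thalamic markers were lower in 8 of 8 (median -0.78), at 193 to 294 against 332 to 382 CPM. Midbrain and hindbrain markers were lower in 6 of 7 tested (median -1.03).

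Per length of their exons, the 4 neuropeptide and GABA genes Sst, Cck, Npy and Gad1 were the most abundant. Over the 9 libraries Sst averaged 121 ± 21.9 CPM per kilobase (SD, n = 9) and Cck 112 ± 37.5, and Sst lay above Cck in 4 of 9 libraries. Npy followed at 60.9 ± 20.8 and Gad1 at 57.4 ± 10.2 CPM per kilobase, with Npy above Gad1 in 4 of 9. Next came Lamp5 (44.8 ± 21.3), Pvalb (35.4 ± 13.1) and Calb2 (19.3 ± 16.3 CPM per kilobase). Vip (8.98 ± 3.21), Reln (4.48 ± 1.14) and Lhx6 (3.72 ± 1.39 CPM per kilobase) were the least abundant of the 10. In this order, 2 steps held in all 9 libraries, from Cck down to Npy and from Vip down to Reln, and the ranges of every neighbouring pair overlapped. This scale takes all annotated exons as the length, which lowers the value of genes with rarely used exons.

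The 10 genes differed in how steady they were within a genotype. Sst varied the least, with a within-genotype SD of 0.19 on the log2 CPM scale, below the median of 0.22 over all genes tested. Calb2 varied the most, at 1.04, above 97.2% of all genes tested, and its CPM differed 16.7-fold between the lowest and the highest library. Lamp5 (0.72), Pvalb (0.66), Npy (0.60), Cck (0.57), Vip (0.51) and Lhx6 (0.50) were also more variable than at least 82.3% of genes, while Reln (0.32) and Gad1 (0.28) lay nearer the median. The plot of levels by library shows these spreads.

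**Figure D1:**
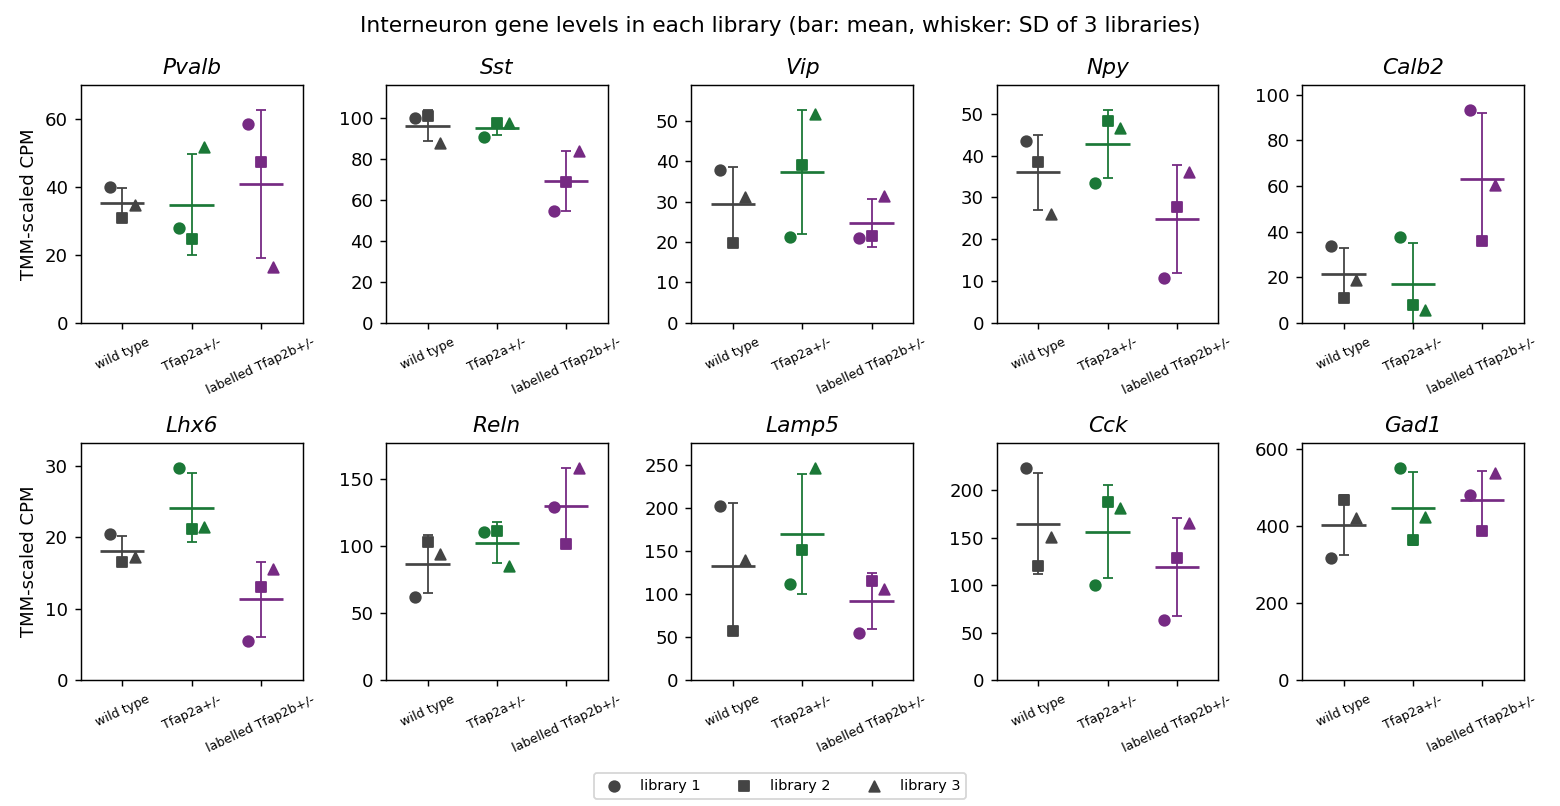
TMM-scaled CPM (y axis) of each of the 10 genes in the 3 wild-type, 3 Tfap2a+/- and 3 libraries labelled Tfap2b+/- (x axis). Points are libraries, bars the mean and whiskers the SD, cut at 0. Sst, Lhx6 and Calb2 have no overlap between wild type and the libraries labelled Tfap2b+/-.

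In what follows, values are given in the order of libraries 1 to 3 of each group, and gene positions are those of GENCODE M21 on GRCm38. Sst (ENSMUSG00000004366.4, chr16:23889573-23890958, minus strand) encodes somatostatin, released by interneurons that inhibit the dendrites of pyramidal cells. Sst CPM was 100.03, 101 and 87.8 for wild type, 90.9, 97.4 and 97.8 for Tfap2a+/-, and 54.7, 68.8 and 83.9 for those labelled Tfap2b+/-. All 3 libraries labelled Tfap2b+/- lay below all 6 others. Npy (ENSMUSG00000029819.6, chr6:49822710-49829507, plus strand) encodes neuropeptide Y, made by neurogliaform cells, by part of the Sst cells and by a class of striatal interneurons. Npy CPM was 43.5, 38.4 and 25.9 for wild type, 33.3, 48.2 and 46.5 for Tfap2a+/-, and 10.8, 27.7 and 36.1 for those labelled Tfap2b+/-. The 3 groups overlapped, and library 1 labelled Tfap2b+/- was the lowest of all.

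Vip (ENSMUSG00000019772.5, chr10:5639218-5647617, plus strand) encodes vasoactive intestinal peptide, carried by interneurons that mostly inhibit other interneurons. Vip CPM was 37.8, 19.7 and 31.2 for wild type, 21.2, 39.2 and 51.7 for Tfap2a+/-, and 21.03, 21.5 and 31.6 for those labelled Tfap2b+/-. Cck (ENSMUSG00000032532.7, chr9:121489824-121495694, minus strand) encodes cholecystokinin, found in a class of basket cells and in many pyramidal cells. Cck CPM was 223, 120.3 and 151 for wild type, 100.2, 187 and 182 for Tfap2a+/-, and 63.4, 129 and 165 for those labelled Tfap2b+/-. Both genes overlapped between all groups.

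Pvalb (ENSMUSG00000005716.16, chr15:78191114-78206400, minus strand) encodes parvalbumin, the calcium buffer of fast-spiking basket and chandelier cells. Pvalb CPM was 39.9, 30.8 and 34.8 for wild type, 27.7, 24.8 and 51.8 for Tfap2a+/-, and 58.4, 47.3 and 16.5 for those labelled Tfap2b+/-. The group labelled Tfap2b+/- held both the highest and the lowest value of the 9. Calb2 (ENSMUSG00000003657.9, chr8:110137502-110168210, minus strand) encodes calretinin, a related calcium-binding protein of part of the Vip cells and of many thalamic, midbrain and olfactory bulb cells. Calb2 CPM was 33.6, 11.1 and 18.9 for wild type, 37.6, 7.62 and 5.57 for Tfap2a+/-, and 93.1, 35.9 and 60.3 for those labelled Tfap2b+/-. Every library labelled Tfap2b+/- lay above every wild-type one, by a narrow margin between its library 2 and wild-type library 1.

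Lhx6 (ENSMUSG00000026890.19, chr2:36081953-36105408, minus strand) encodes the lineage factor of Pvalb and Sst cells. Lhx6 CPM was 20.5, 16.6 and 17.3 for wild type, 29.7, 21.2 and 21.5 for Tfap2a+/-, and 5.47, 13.0 and 15.6 for those labelled Tfap2b+/-. No 2 of the 3 groups overlapped. A small RNA gene, Gm27953, shares exon sequence with Lhx6 on the same strand, so reads there could not be told apart. Reln (ENSMUSG00000042453.14, chr5:21884454-22344702, minus strand) encodes reelin, a secreted protein that guides neuronal layering and is kept in adult interneurons of the outer cortical layer. Reln CPM was 62.5, 103 and 94.7 for wild type, 111, 112 and 85.0 for Tfap2a+/-, and 129, 102 and 159 for those labelled Tfap2b+/-. Wild-type library 1 was the lowest of the 9, and the groups overlapped. Exons of Reln overlap those of the antisense gene Gm10475, and the counts used are by strand.

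Lamp5 (ENSMUSG00000027270.14, chr2:136052239-136069917, plus strand) encodes a lysosome-associated membrane protein that marks neurogliaform cells. Lamp5 CPM was 202, 57.1 and 139 for wild type, 111, 151 and 246 for Tfap2a+/-, and 55.1, 115 and 106 for those labelled Tfap2b+/-. Gad1 (ENSMUSG00000070880.10, chr2:70553072-70602014, plus strand) encodes the glutamate decarboxylase GAD67. Gad1 CPM was 316, 469 and 419.6 for wild type, 550.3, 364 and 423 for Tfap2a+/-, and 480.0, 386 and 537 for those labelled Tfap2b+/-. Both genes overlapped between all groups, and Gad1 spread the least of the 10 from library to library, 1.74-fold between the lowest and the highest.

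Tfap2a+/- was compared with wild type to ask which brain transcripts differ with 1 copy of Tfap2a inactivated. None of the 10 interneuron genes was called by edgeR at a Benjamini-Hochberg adjusted p under 0.05, and the share called of all 17355 genes was 0%. DESeq2 called none of the 10 either, against 0.173% of all genes to which it gave an adjusted p (30 of 17332). At an unadjusted p under 0.05 there were 0 of 10, against 3.84% of all genes (2.15% higher, 1.68% lower). Means were higher for 6 genes and lower for 4, with a median log2 fold of 0.20 beside -0.01 over all genes tested. The groups did not overlap for 1 gene, Lhx6, against 9.17% of all genes (4.85% higher, 4.32% lower). Mean Lhx6 CPM was 24.1 ± 4.83 in Tfap2a+/- and 18.1 ± 2.05 in wild type (SD, n = 3), and the log2 fold was 0.42 ± 0.32 (SE, edgeR adjusted p = 0.999). Without Tfap2a+/- library 1, which has the highest Lhx6 and the highest striatal score of the 9, the log2 fold was 0.24, and it was 0.19 without that library, wild-type 2 and labelled Tfap2b+/- 1 together. The part of the striatal markers in the result was not tested.

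How large a change could have been missed differed by gene. For Sst the log2 fold was -0.01 ± 0.14 (SE), and its 95% interval ran from 0.794-fold to 1.23-fold. For Gad1 the log2 fold was 0.15 ± 0.20, with an interval from 0.812-fold to 1.52-fold, and for Reln 0.24 ± 0.22, from 0.840-fold to 1.67-fold. These are the narrowest of the 10. For Pvalb (-0.02 ± 0.43) the interval ran from 0.503-fold to 1.94-fold, for Cck (-0.08 ± 0.38) from 0.526-fold to 1.71-fold and for Lamp5 (0.35 ± 0.47) from 0.612-fold to 2.67-fold. Vip (0.34 ± 0.34) and Npy (0.25 ± 0.38) had intervals up to 2.15-fold and 2.16-fold. Calb2 had the widest, from 0.263-fold to 2.49-fold around a log2 fold of -0.31 ± 0.71. Without Tfap2a+/- library 1, which holds the highest value of that group, the Calb2 log2 fold was -1.67, while leaving out wild-type library 1 gave 0.20. The intervals of all 10 genes held no change, and 5 of them also held a change of at least 1 on the log2 scale.

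The second comparison, from the same fit, set the group labelled Tfap2b+/- against wild type, so both comparisons share the wild-type libraries. None of the 10 genes was called by edgeR, where the smallest adjusted p was 0.37, while the share called of all genes was 0% with edgeR. DESeq2 also called none of the 10, against 1.03% of all genes (175 of 16995). At an unadjusted p under 0.05 there were 2 of 10, Sst lower and Reln higher, against 10.6% of all genes (6.46% higher, 4.15% lower). The groups did not overlap for 3 of 10, Sst and Lhx6 lower and Calb2 higher, against 16.5% of all genes (8.84% higher, 7.63% lower). Means were lower for 6 genes and higher for 4, with a median log2 fold of -0.36 beside 0.00 over all genes tested (-0.0012).

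Fragments counted to no annotated exon on the strand used made up 11.1% to 11.8% of each library labelled Tfap2b+/-. In the other 6 they made up 7.30% to 8.96%. This sign of library make-up moves with every difference of the group labelled Tfap2b+/-, and its part was not tested. Mean Sst CPM was 69.1 ± 14.6 for those labelled Tfap2b+/- and 96.3 ± 7.40 for wild type (SD, n = 3), and the log2 fold was -0.48 ± 0.14 (SE, lower in 3 of 3 libraries, edgeR adjusted p = 0.37). The 95% interval ran from 0.575-fold to 0.895-fold without correction for the number of genes. Lhx6 was at 11.4 ± 5.25 against 18.1 ± 2.05 CPM, a log2 fold of -0.68 ± 0.33 (edgeR adjusted p = 0.50). Calb2 was at 63.1 ± 28.7 against 21.2 ± 11.4 CPM, a log2 fold of 1.58 ± 0.72 (edgeR adjusted p = 0.48), and its interval ran from 0.966-fold to 9.23-fold. Thalamic markers (8 of 8 of higher mean) summed to 805, 1145 and 181 CPM in libraries 1 to 3 labelled Tfap2b+/-, against 332 to 382 in wild type and 193 to 294 in Tfap2a+/-, with none at 0. Among them Slc17a6, a glutamate transporter of thalamic and other subcortical cells, was at 324, 187 and 23.4 CPM there. Library 3, low in these, is the one high in olfactory bulb markers, and the part of either list in the Calb2 values was not tested. Reln was at 130 ± 28.5 against 86.8 ± 21.5 CPM, a log2 fold of 0.58 ± 0.22 (edgeR adjusted p = 0.45). The other 6 genes, with log2 folds from -0.53 for Npy to 0.22 for Gad1, had edgeR adjusted p of at least 0.62. Cortical excitatory markers had a lower mean in 9 of 10 in the same comparison, with a median log2 fold of -0.49. Their scores were -0.94, 0.017 and 0.0077 in libraries 1 to 3 labelled Tfap2b+/-, and 0.38, 0.063 and 0.27 in wild type. Summed levels overlapped, at 800 to 2083 against 2054 to 2533 CPM. The part of these markers in the lower means of the 10 genes was not tested.

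Single libraries weighed on these values. Library 1 labelled Tfap2b+/- was the lowest of all 9 libraries for Sst, Npy, Lhx6, Lamp5 and Cck and the highest for Pvalb and Calb2, which makes 7 of 10 genes at an extreme, against at most 3 in any other library. Without it the log2 fold was -0.33 for Sst, -0.34 for Lhx6, -0.17 for Npy, -0.16 for Cck, -0.25 for Lamp5 and 1.19 for Calb2, while Reln stayed at 0.59. Pvalb changed sign, from 0.21 to -0.13. Wild-type library 1 also moved log2 folds. Without it they were -0.09 for Lamp5, -0.05 for Vip (from -0.26), 0.07 for Gad1 (from 0.22) and 0.39 for Reln (from 0.58). Without library 3 labelled Tfap2b+/-, which holds the highest Reln value, Reln was at 0.41. The unadjusted edgeR p of Reln was 0.083 and 0.10 in these runs. In library 1 labelled Tfap2b+/- Slc17a7, the glutamate transporter of cortical excitatory cells, was at 364 CPM against 889 to 1601 CPM elsewhere. Tph2, the serotonin-making enzyme of the raphe, was at 40.9 CPM there against at most 1.55 CPM elsewhere. Their part in the result was not tested. Sst also stayed lower without the 3 libraries richest in choroid plexus or hindbrain markers (wild-type 2, Tfap2a+/- 1 and labelled Tfap2b+/- 1), at -0.29, and Calb2 higher, at 0.88, while Lhx6 was at -0.39.

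**Figure D2:**
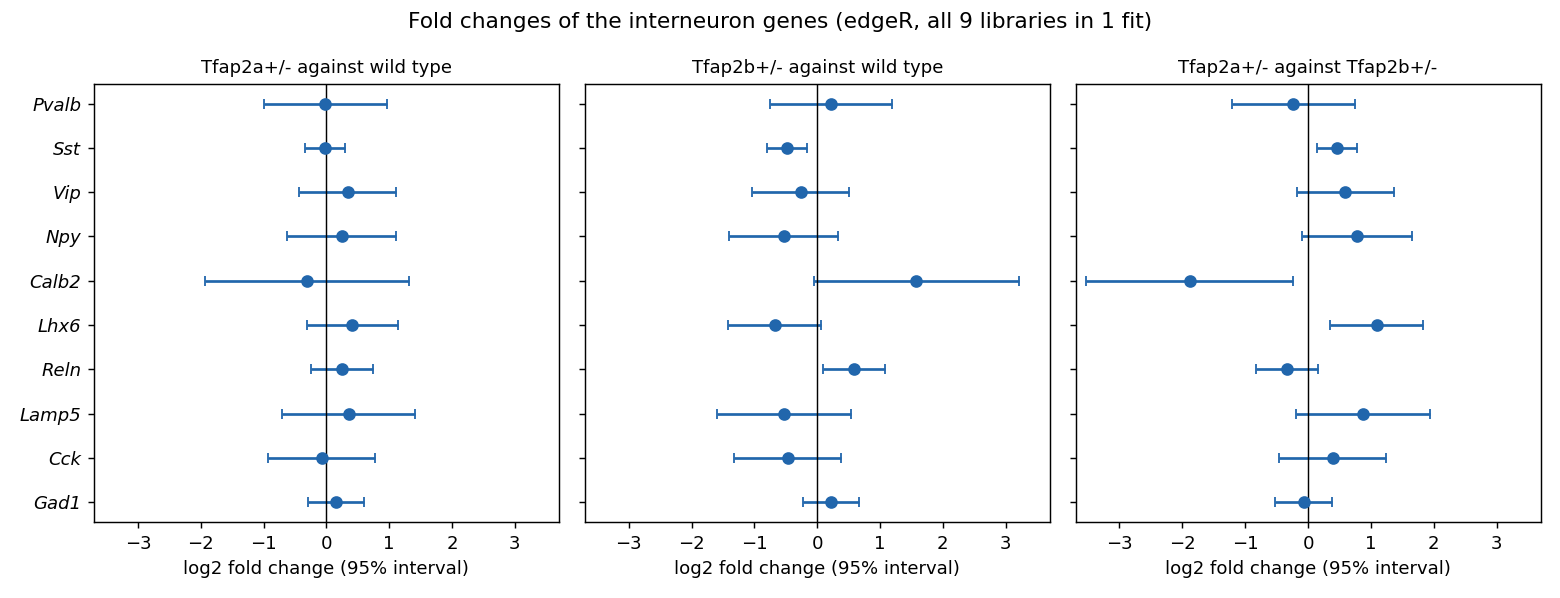
Log2 fold change (x axis) with its 95% interval from edgeR for each of the 10 genes (y axis) in the 3 comparisons. All 10 intervals hold 0 in Tfap2a+/- against wild type, and Sst and Reln are the 2 whose unadjusted intervals do not in the libraries labelled Tfap2b+/- against wild type.

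Tfap2a+/- was also set against the group labelled Tfap2b+/-, which tests whether their differences from wild type differ. No interneuron gene was called by edgeR (smallest adjusted p 0.37) or by DESeq2, with a share called over all genes of 0% in edgeR and 1.37% in DESeq2 (228 of 16659). Sst, Lhx6 and Calb2, 3 of 10, had an unadjusted p under 0.05, against 11.5% of all genes (4.98% higher, 6.53% lower), and for 2 of 10, Sst and Lhx6, the groups did not overlap, against 17.2% of all genes (8.03% higher, 9.2% lower). Lhx6 was 2.13-fold higher in Tfap2a+/- (log2 fold 1.09 ± 0.33, edgeR adjusted p = 0.37), and 0.76 on the log2 scale without library 1 labelled Tfap2b+/-. Sst was 1.38-fold higher (log2 fold 0.46 ± 0.14, edgeR adjusted p = 0.37). Calb2 had a log2 fold of -1.88 ± 0.72 (edgeR adjusted p = 0.40), with 1 Tfap2a+/- library, at 37.6 CPM, above the lowest library labelled Tfap2b+/-, at 35.9 CPM. The striatal markers were also higher here, with 10 of 10 of higher mean in Tfap2a+/- (median log2 fold 1.83). Tfap2a+/- libraries 2 and 3, with Lhx6 at 21.2 and 21.5 CPM, had striatal scores of 1.68 and 0.19. The part of the striatal markers in the result was not tested.

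Each gene was next set against Gad1 in the same library, to see subtype markers beside general GABA synthesis. The ratio of Sst to Gad1 CPM was 0.316, 0.216 and 0.209 in wild type, 0.165, 0.268 and 0.231 in Tfap2a+/- and 0.114, 0.178 and 0.156 in the libraries labelled Tfap2b+/-. The last group lay below wild type in 3 of 3, by -0.72 on the log2 scale. The ratio of Lhx6 to Gad1 was 0.0647, 0.0355 and 0.0412 in wild type, 0.0540, 0.0583 and 0.0508 in Tfap2a+/- and 0.0114, 0.0337 and 0.0290 in the libraries labelled Tfap2b+/-, a difference of -1.03 for the last group. The ratio of Reln to Gad1 was higher in the libraries labelled Tfap2b+/-, at 0.270, 0.263 and 0.295 against 0.197, 0.220 and 0.226, a difference of 0.36. These 3 were the only ratios whose groups did not overlap, of 9 genes in 2 comparisons, and none was in Tfap2a+/-. Each had an exact two-sided permutation p of 0.1, the smallest that 3 against 3 allows, and 0.6 after adjustment over the 18 tests. Calb2 relative to Gad1 no longer separated the groups, at 0.194, 0.0929 and 0.112 in the libraries labelled Tfap2b+/- and 0.106, 0.0236 and 0.0450 in wild type. With the mean of Gad1, its paralog Gad2 and the vesicular GABA transporter gene Slc32a1 as the denominator, no difference between group means moved by more than 1 SD. With that denominator, however, Lhx6 overlapped between wild type and the libraries labelled Tfap2b+/-, while Sst and Reln did not.

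**Figure D3:**
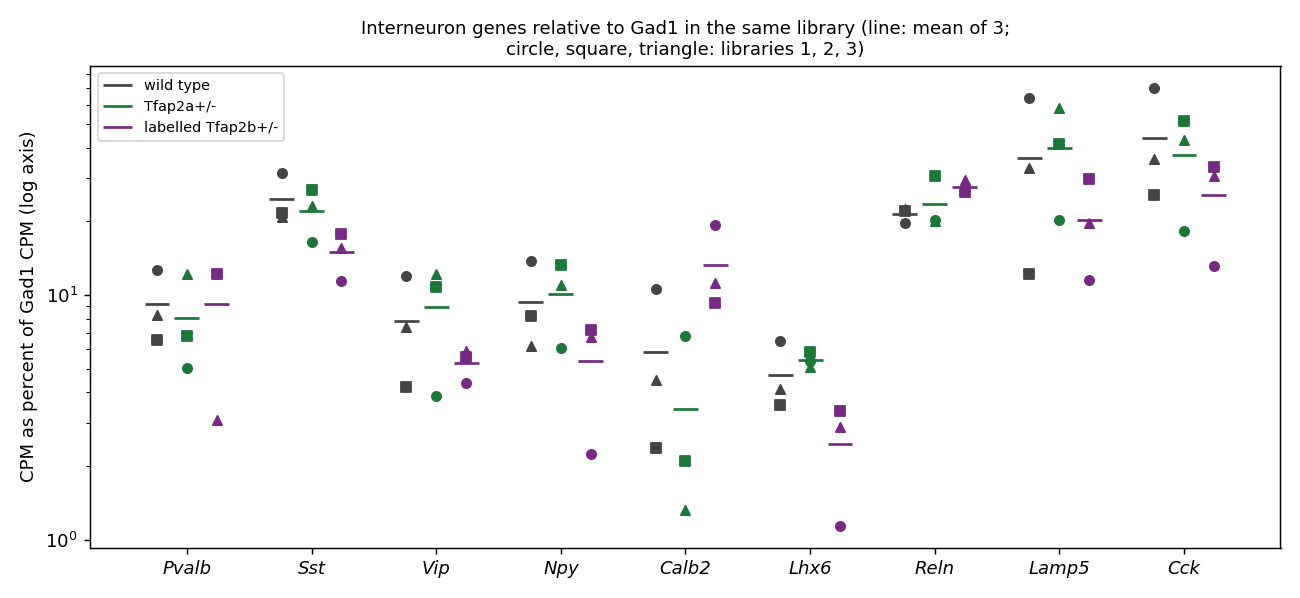
CPM of each gene as a percent of Gad1 CPM in the same library (y axis, log scale) for 9 interneuron genes (x axis). Points are libraries, lines are means of 3, and colours are the 3 genotype groups. Sst and Lhx6 lie below wild type and Reln above it in every library labelled Tfap2b+/-.

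Pairs of the 10 genes were compared over libraries, and none passed adjustment. Over the 9 libraries, Sst and Npy had a Pearson r of 0.91 and a Spearman rho of 0.75 (exact permutation p = 0.0027 and 0.025). Vip and Lamp5 had r = 0.86 and rho = 0.87 (exact permutation p = 0.0019 and 0.0045), and Vip and Cck had r = 0.78 and rho = 0.88 (exact permutation p = 0.0096 and 0.0031). Among 45 pairs the smallest Benjamini-Hochberg adjusted exact permutation p was 0.061 for r and 0.10 for rho. Library 1 labelled Tfap2b+/- moved the pairs with Sst, and without it r was 0.72 for Npy and 0.59 for Lhx6. Without the 2 libraries farthest from the median of Sst, which are 1 and 2 labelled Tfap2b+/-, r fell to 0.67 for Npy and to 0.19 for Lhx6. Vip and Lamp5 kept r = 0.74 without the 2 libraries farthest from the median of Vip, and Vip and Cck kept 0.87. Pvalb, although a marker of cells of the same origin as Sst and Lhx6, had r of -0.44 and -0.45 with them (exact permutation p = 0.24 and 0.22), and of -0.07 and -0.05 without library 1 labelled Tfap2b+/-. The libraries share differences in regional markers, so these values describe the libraries and not single cells.

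Each gene was also set against Gad1 and against the cortical excitatory and striatal scores, which made 29 relations. One passed adjustment, Cck with the cortical excitatory score, at r = 0.93 (exact permutation p = 0.00077, adjusted p = 0.022) and rho = 0.78 (exact permutation p = 0.017, adjusted p = 0.12). Within genotypes, as deviations from each group's mean, r was 0.92. Without the 2 libraries farthest from the median score, Tfap2a+/- 1 and labelled Tfap2b+/- 1, r was 0.66 (exact permutation p = 0.11), so the relation rests largely on those 2. Lamp5 (r = 0.75, rho = 0.87, exact permutation p = 0.018 and 0.0045) and Npy (r = 0.82, rho = 0.62, exact permutation p = 0.021 and 0.086) did not pass adjustment (adjusted p of at least 0.12). Neither did Sst (r = 0.76, rho = 0.65, exact permutation p = 0.026 and 0.067) or Vip (r = 0.71, rho = 0.70, exact permutation p = 0.025 and 0.043). Without the same 2 libraries r was 0.82 for Lamp5, 0.79 for Vip, 0.55 for Sst and 0.41 for Npy. Calb2 (r = -0.69, rho = -0.83, exact permutation p = 0.032 and 0.0083) and Reln (r = -0.58, rho = -0.80, exact permutation p = 0.11 and 0.014) went the other way with the same score, also without passing. The r of Gad1 with the other 9 genes ranged from -0.60 with Cck to 0.75 with Reln, and none of these 9 relations passed (smallest adjusted exact permutation p = 0.13). With the striatal score the largest r was that of Lhx6, at 0.66 (rho = 0.65, exact permutation p = 0.045 and 0.067). It did not pass adjustment (adjusted p = 0.16 and 0.19). Without the libraries farthest from the median striatal score, Tfap2a+/- 1 and 2, it was 0.51 (exact permutation p = 0.24). The map of libraries by gene shows these patterns beside the regional scores.

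**Figure D4:**
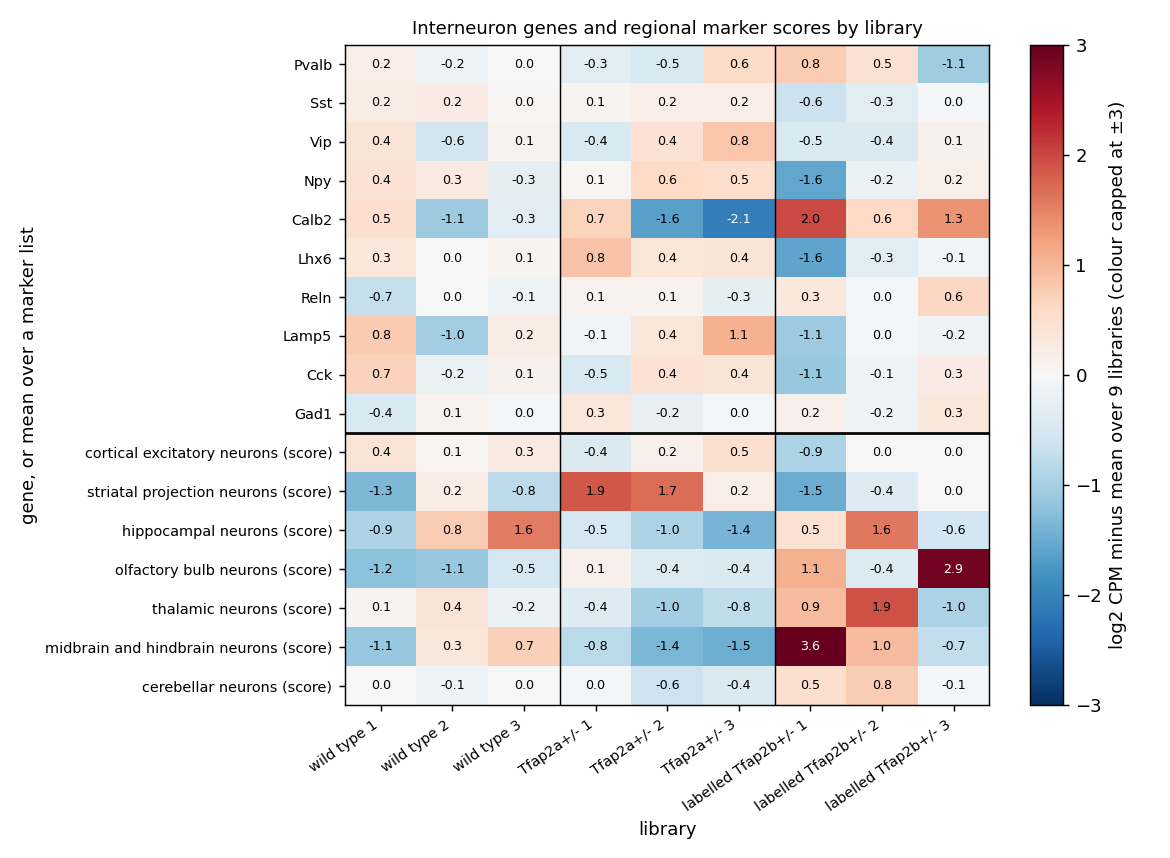
Deviation of log2 CPM from each gene's own mean (colour and number) for the 10 genes, and the score of 7 regional marker lists below the line (rows), in each library (columns). Library 1 labelled Tfap2b+/- is low for Sst, Npy, Lhx6, Lamp5, Cck and the cortical excitatory score and high for Calb2 and the midbrain and hindbrain score.

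The other genes of these cell classes were followed through 8 lists. Of 89 genes beside the 10, none was called by edgeR in any of the 3 comparisons. In Tfap2a+/- 6 had an unadjusted p under 0.05 (3 higher, 3 lower), which is 6.74% against 3.84% of all genes. In the libraries labelled Tfap2b+/- there were 14 (8 higher, 6 lower), 15.7% against 10.6%. The groups did not overlap for 9 genes in Tfap2a+/- (5 higher, 4 lower) and for 11 in the libraries labelled Tfap2b+/- (5 higher, 6 lower), which is 10.1% and 12.4%, against 9.17% and 16.5% of all genes. Their median log2 folds were 0.04 in both comparisons.

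GABA synthesis, packaging, uptake and breakdown genes, Gad1 included, had higher means in 8 of 8 in the libraries labelled Tfap2b+/- (median log2 fold 0.21) and in 6 of 8 in Tfap2a+/- (median 0.14), none called. Gad2, which makes the GAD65 enzyme of synaptic terminals, had a log2 fold of 0.24 ± 0.39 in Tfap2a+/- and 0.21 ± 0.39 in the libraries labelled Tfap2b+/-. Slc6a11, a GABA transporter of astrocytes, had CPM of 645.8, 339.5 and 242 for those labelled Tfap2b+/- and 167, 172 and 264 for wild type, so the groups overlapped. Among 18 lineage transcription factors, Lhx6 included, the medians were 0.30 and -0.09. Nkx2-1 and Lhx8, which specify medial eminence cells and stay on in striatal and basal forebrain neurons, were at 4.90 and 7.39 CPM in Tfap2a+/- library 1 and at 1.25 CPM or less in the other 8 libraries. That library also had the highest striatal score, 1.86. Tfap2a+/- library 2 had a score of 1.68, with Nkx2-1 at 1.25 and Lhx8 at 1.07 CPM. The part of striatal content in these values was not tested.

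Companions of Pvalb cells had median log2 folds of -0.08 in Tfap2a+/- and 0.05 in the libraries labelled Tfap2b+/-, over 12 genes. Ppargc1a, a coactivator of mitochondrial genes, was at 67.0 ± 6.52 against 82.7 ± 5.21 CPM in Tfap2a+/- and wild type (log2 fold -0.30 ± 0.11, edgeR adjusted p = 0.999). Among 14 companions of Sst cells the medians were 0.18 and 0.06. Crhbp, which binds corticotropin-releasing hormone, lay low beside Sst in the libraries labelled Tfap2b+/-, at 6.85, 7.52 and 11.3 CPM against 12.8, 16.9 and 13.8 CPM (log2 fold -0.76 ± 0.24, edgeR adjusted p = 0.38). Grin3a, an NMDA receptor subunit, went the other way, at 98.9, 64.8 and 78.8 against 55.0, 60.6 and 60.8 CPM (log2 fold 0.46 ± 0.14, edgeR adjusted p = 0.38). Of the 14, 8 had a higher and 6 a lower mean. In Tfap2a+/- the metalloprotease gene Mme was at 33.4, 29.2 and 16.8 CPM against 10.9, 12.3 and 15.6 CPM (log2 fold 1.03 ± 0.25, edgeR adjusted p = 0.999). Striatal markers summed to 3033, 2752 and 1192 CPM in the same Tfap2a+/- libraries, and their part in the result was not tested.

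Companions of Vip cells (8 genes) had medians of 0.23 and 0.16. Adarb2, an RNA-binding protein that marks interneurons of caudal origin, had the smallest p of the listed genes against wild type, with CPM of 28.5, 46.3 and 44.2 for those labelled Tfap2b+/- and 17.9, 21.2 and 20.2 for wild type (a log2 fold of 1.004 ± 0.23, edgeR adjusted p = 0.29). Vip itself had a lower mean there (-0.26 ± 0.34). Among 10 neurogliaform companions the medians were 0.00 (0.00082) and -0.05. Ndnf, a secreted protein of outer-layer cells, was at 71.5 CPM in library 3 labelled Tfap2b+/- and at 27.4 and 25.2 CPM in libraries 1 and 2, against 18.7 to 21.01 CPM for wild type (a log2 fold of 1.07 ± 0.35, edgeR adjusted p = 0.40). Library 3 is also the one high in olfactory bulb markers, and their part in the result was not tested. The 6 Cck basket cell companions had medians of 0.02 and 0.04.

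Receptors for the peptides and for reelin (15 genes) had medians of -0.04 in Tfap2a+/- and -0.14 in the libraries labelled Tfap2b+/-. The somatostatin receptor gene Sstr2 had CPM of 13.7, 12.97 and 16.1 for those labelled Tfap2b+/- and 18.9, 33.3 and 19.3 for wild type, with groups that did not overlap (log2 fold -0.74 ± 0.21, edgeR adjusted p = 0.37). Sstr3 was at 22.3 ± 5.98 against 32.04 ± 4.26 CPM (log2 fold -0.53 ± 0.21, edgeR adjusted p = 0.45) and its groups overlapped. The means of both receptors and of Sst were thus lower in the same libraries, and none of the 3 passed the test. In Tfap2a+/- Vipr2, a receptor for vasoactive intestinal peptide, was at 0.890, 0.490 and 0.322 CPM against 2.30, 5.80 and 0.965 CPM (log2 fold -2.37 ± 0.72, edgeR adjusted p = 0.999). These levels are low, and the groups came as close as 0.890 and 0.965 CPM. Hippocampal and thalamic markers also had lower means in Tfap2a+/-, each in 8 of 8, and their part in the result was not tested.

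For each of the 10 genes, the gene of most similar level over the 9 libraries was found by Pearson r of log2 CPM among the other 17354 genes tested. The names are a description, since each r is the largest of 17354 over 9 libraries that share differences in regional markers. The best r of genes outside the 10 was not computed. Sst was nearest to Ubox5 (r = 0.99), Npy to Kcnq5, a potassium channel of the M current (0.98), and Lhx6 to Brms1 (0.98). Cck was nearest to Lhx2, a homeodomain factor of the cortex (0.99), and Lamp5 to Bicdl1 (0.98). Pvalb was nearest to Rab11fip5 (0.97) and then Nefm, a neurofilament subunit of large axons (0.96). Calb2 was nearest to Npff (0.97), which stood at 0.0891 to 0.529 CPM, Vip to Tnfrsf19 (0.96), Reln to Rbbp6 (0.94) and Gad1 to Itgb1 (0.92). None of the 10 genes was among the 3 nearest genes of another.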

How the data were processed

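The authors deposited 1 table of raw counts per library, with unstranded, forward-strand and reverse-strand counts per gene, in the layout of STAR gene counts. Tools and build listed in the submitters' processing notes are STAR 2.6.1d, cutadapt 2.4, edgeR and GRCm38.p6, with no annotation release named. Per the labels' protocols, the kit keeps strand with dUTP, so reverse-strand counts were used, and forward-strand counts were at most 4.94% of the stranded counts. Rows that name no gene (15.5% to 19.7% of fragments, the most in the libraries labelled Tfap2b+/-) were left out. Depth was 21946800 to 29214975 counts in genes per library, and the limit of 3 counts that a count of 0 allows is 0.103 to 0.137 CPM, for counting error only. Of 54446 identifiers, 54409 matched GENCODE M21, which gave symbols and exon lengths. Genes passing filterByExpr went into 1 quasi-likelihood fit of all 9 libraries by genotype alone, with TMM scaling (edgeR 4.0.16, R 4.3.3), checked on simulated data. Log2 CPM used a prior count of 2. DESeq2 1.42.0, its size factors, no filter, unstranded counts, a replicate block, 2 groups only, a robust fit and leaving out libraries were alternatives. The 10 genes, the lists and the tests were chosen with earlier results of these data known. Genes named beside the 10 are the 2 of smallest p in each list and comparison, those nearest in level, and marker genes named after their values were seen.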

Additional observations from a re-analysis of the deposited data

How the results depend on the processing

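None of the 10 genes was called under any alternative run, in any of the 3 comparisons. Calls over all genes changed from 0. DESeq2 called 30 in Tfap2a+/-, 175 in the libraries labelled Tfap2b+/- and 228 between Tfap2a+/- and those labelled Tfap2b+/-, no filter gave 2 in Tfap2a+/- and 7 between those 2, and leaving out single libraries gave 0 to 3, 0 to 4 and 0 to 31. Without wild-type 2, Tfap2a+/- 1 and labelled Tfap2b+/- 1 together, chosen after seeing the data, 2 genes were called in the libraries labelled Tfap2b+/- and 1 between those 2. The cause was not tested. Small log2 folds changed sign. In that setting Pvalb was at 0.047, -0.21 and 0.26 in the 3 comparisons, and Sst at 0.063 in Tfap2a+/-. With single libraries left out, log2 folds in Tfap2a+/- ran from -0.41 to 0.18 for Pvalb, -0.078 to 0.031 for Sst, -1.67 to 0.20 for Calb2, -0.0071 to 0.79 for Lamp5, -0.25 to 0.21 for Cck and -0.023 to 0.29 for Gad1. Pvalb ran from -0.13 to 0.59 in the libraries labelled Tfap2b+/- and from -0.62 to 0.12 between those 2, and Gad1 from -0.25 to 0.060 there. The replicate number as a block called 0 genes in all 3 comparisons and turned Pvalb in Tfap2a+/- to 0.0038. The samples share only a number: 2 of 9 libraries correlated best with their own number, and same-numbered libraries had r from -0.35 to 0.34.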
